A study of Mus musculus with 9 samples.

Results

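The 48 interferon-stimulated genes described here are a listed set of mouse antiviral and immune genes. They were found by symbol among the 21159 Ensembl genes of the deposited count table, and 45 of them reached 10 raw counts in at least 3 of the 9 libraries. Those 45 were also the members that passed the filter of the model, and they carry every count below. Mx1, with 10 counts in exactly 3 libraries, was the lowest member inside that limit. Ifi44 and Mx2 reached it in 2 libraries and Ifit3b in 0, so these 3 were not tested.

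All cells derived from lineage-depleted (Lin-) mouse bone marrow of the genotype Runx2fl/fl;CreERT2tg, in which 4-hydroxytamoxifen (4-OHT) switches on Cre and deletes floxed Runx2. Runx2ko cells (n = 3) were transformed with a KMT2A-MLLT1-eGFP retrovirus, which encodes the leukaemia fusion also called MLL-ENL, and received 400 nM 4-OHT for 24 hours. Runx2wt cells (n = 3) were transformed in the same way and received ethanol, and BM progenitor cells (n = 3) were untreated and sampled before the first of several replatings in methylcellulose, 7 days apart. RNA of 500 ng per sample was read as QuantSeq tags near the polyadenylation site. The labels leave open whether BM progenitor cells carried the fusion, and their extraction text speaks of T-ALL cells. 4-OHT and Cre activity go with Runx2ko in every library, and passage and culture form differ between BM progenitor and transformed cells, so these cannot be told apart from the genotype or the fusion. The labels call all samples independent biological replicates.

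Cells detect viral or misplaced nucleic acid with sensors such as RIG-I and cGAS, which leads to secretion of type I interferon. Interferon binds its receptor, the kinases Jak1 and Tyk2 are activated, and Stat2 and Irf9 enter the complex ISGF3, which binds the interferon-stimulated response element (ISRE) in promoters. Interferon gamma acts through a different element, GAS. Many of the induced genes are themselves sensors or transcription factors of the pathway, and blood-forming cells are known to hold a basal level of them.

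The promoter sequences of members show what the genes share apart from their name on the list. RefSeq windows (GRCm38.p6, 250 bases before to 50 after a gene's start) matched 38 of the 48 members. The ISRE core, GAAA and GAAA with any 2 bases between them, searched on both strands, lay in 19 of these 38 (50.0%), against 3.993% of the 27025 gene symbols with a window. The longer form, the core followed by CT, was found in 12 members (31.58%), against 0.3034% of all symbols. The GAS motif TTCNNNGAA lay in 10 members (26.32%), against 9.554%. The RUNX core TGTGGT lay in 6 members (15.79%), against 18.92% of all symbols. These are matches of letters, not measured binding.

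Whole windows are shown for Isg15, whose level varied widely between libraries, and for Ddx58 and Gbp2, which passed the test in opposite directions. Capitals mark ISRE cores on either strand, and each line reads 5′ to 3′ on the gene's strand. Overlapping cores form 1 run of capitals, as in Isg15, where 3 cores overlap and the first begins 78 bases upstream of the start.
Isg15, chr4:156200769-156201068, minus strand: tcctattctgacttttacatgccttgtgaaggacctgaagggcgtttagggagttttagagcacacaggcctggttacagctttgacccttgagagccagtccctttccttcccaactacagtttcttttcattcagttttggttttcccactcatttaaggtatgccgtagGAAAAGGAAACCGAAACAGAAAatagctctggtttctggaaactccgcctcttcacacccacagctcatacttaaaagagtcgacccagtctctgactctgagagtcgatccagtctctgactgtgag
Ddx58, chr4:40239776-40240075, minus strand: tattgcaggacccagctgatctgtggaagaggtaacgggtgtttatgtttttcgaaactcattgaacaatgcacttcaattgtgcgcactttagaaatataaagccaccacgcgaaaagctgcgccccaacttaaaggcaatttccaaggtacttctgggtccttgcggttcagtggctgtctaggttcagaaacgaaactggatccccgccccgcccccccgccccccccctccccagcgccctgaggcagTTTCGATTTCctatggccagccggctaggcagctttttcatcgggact
Gbp2, chr3:142620413-142620712, plus strand: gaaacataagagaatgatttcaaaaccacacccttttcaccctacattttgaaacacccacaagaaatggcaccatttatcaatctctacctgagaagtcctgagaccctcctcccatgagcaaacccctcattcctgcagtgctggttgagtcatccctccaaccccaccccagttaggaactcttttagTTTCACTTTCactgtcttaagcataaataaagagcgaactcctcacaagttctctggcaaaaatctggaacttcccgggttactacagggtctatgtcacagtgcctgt
In Gbp2 the core begins 59 bases upstream of the start. In Ddx58 it begins 2 bases past it.

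Shorter stretches around the cores are shown for members of other families. The Ifit3 and Ifit3b stretches are given together because these neighbouring genes also share sequence at their 3′ ends; each of their windows holds 2 cores, of which the first is shown.
Ifit1, chr19:34640775-34640823, plus strand: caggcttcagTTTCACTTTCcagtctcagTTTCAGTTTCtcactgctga
Ifit3, chr19:34583363-34583392, plus strand: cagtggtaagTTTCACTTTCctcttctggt
Ifit3b, chr19:34607759-34607788, plus strand: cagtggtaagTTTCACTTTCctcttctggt
Oas1a, chr5:120907520-120907555, minus strand: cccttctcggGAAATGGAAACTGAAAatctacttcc
Cxcl10, chr5:92349083-92349112, minus strand: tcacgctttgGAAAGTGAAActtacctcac
Rsad2, chr12:26456553-26456582, minus strand: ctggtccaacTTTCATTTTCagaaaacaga
Eif2ak2, chr17:78882535-78882564, minus strand: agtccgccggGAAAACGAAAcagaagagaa
The printed Ifit3 and Ifit3b stretches are the same letters at different positions on chromosome 19.

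Totals ran from 3118594 to 5348177 counts per library, and levels are given as CPM, a count scaled to library size with TMM factors. The library Runx2ko replicate 1 stood apart: its summed mast cell and basophil markers were 3769 CPM, against 38.6 to 438 CPM in the other 5 transformed libraries and 781 to 949 CPM in BM progenitor. Its summed monocyte and macrophage markers were 343 CPM, against 3743 to 11450 CPM and 3028 to 4171 CPM. Runx2, the targeted transcription factor gene, had 21.0, 120.1 and 134.7 CPM in Runx2ko, against 159.4, 178.8 and 131.0 CPM in Runx2wt, with overlapping groups. Which Runx2 exon is floxed is not in the labels, so a 3′ tag may lie outside the deleted stretch and does not check the deletion. Markers of blood-cell identity summed to 389 to 785 CPM over the 9 libraries. T and NK cell markers summed to 12.7 to 34.9 CPM in Runx2ko, 3.60 to 8.66 CPM in Runx2wt and 92.5 to 105.4 CPM in BM progenitor. Nkg7 alone made up 89.4, 100.3 and 98.97 CPM of the BM progenitor sums, and Cd3e, Cd3g, Cd4 and Cd8a were at 0 to 0.730 CPM there.

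The first pattern in the members was by library, not by group. Runx2ko replicate 3 was the highest of its group in 39 of 45 members, where 32.56% of all tested genes had their group's highest value in that library. It was the highest of all 9 libraries in 27 of 45 members, against 14.26% of all genes. In 38 of 45 members it lay above every Runx2wt library, against 26.9% of all genes. This pattern was noticed in the data and is given as a description with no test.

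Summed over the 45 members, levels were 1122, 1196 and 2457 CPM in Runx2ko, 1272, 1578 and 1392 CPM in Runx2wt, and 1422, 1001 and 1345 CPM in BM progenitor. Runx2ko replicate 3 was therefore the highest library, while replicates 1 and 2 lay below every Runx2wt library. Against Runx2ko replicate 2, replicate 3 was higher in 43 of 45 members, with a median log2 ratio of 1.2 (50.04% of all genes were higher). Against replicate 1 it was higher in 40 of 45, with a median log2 ratio of 1.17 (47.29% of all genes). The 6 members in which replicate 3 was not its group's highest were Gbp2, Ifi35, Ifi47, Irgm1, Mx1 and Tap1, and of these Gbp2 was at its group's lowest there.

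**Figure D1:**
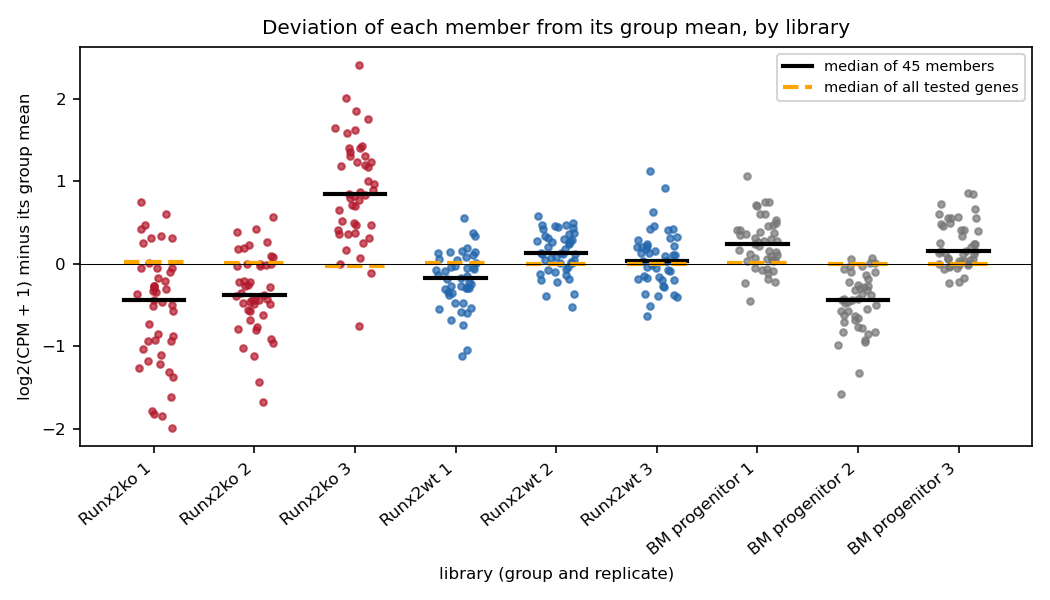
Deviation of each of the 45 tested members from the mean of its group, on the log2(CPM + 1) scale, by library. Black bars are medians of the members and dashed bars medians of all tested genes; the member median was 0.85 in Runx2ko replicate 3 and -0.43 in BM progenitor replicate 2, while those of all genes lay near 0 in every library.

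BM progenitor replicate 2 was low in the same way, being the lowest of its group in 37 of 45 members, against 30.81% of all genes. The median member deviations from the group mean, on the log2(CPM + 1) scale, were -0.44, -0.38 and 0.85 in Runx2ko, -0.17, 0.13 and 0.04 in Runx2wt, and 0.24, -0.43 and 0.15 in BM progenitor. On the CPM + 1 scale, on which ratios of members with low levels are compressed, 20 of 45 members in Runx2ko spread more than 4-fold between libraries (13.13% of all genes). In Runx2wt this spread of CPM + 1 held for 0 of 45 (3.055% of all genes) and in BM progenitor for 2 of 45 (0.3037%). The median ratio of the highest to the lowest library, again of CPM + 1, was 3.42 in Runx2ko, 1.58 in Runx2wt and 1.89 in BM progenitor over the members, against 1.73, 1.44 and 1.28 over all genes.

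Marker sums of other cell types also differed between the Runx2ko libraries. Late neutrophil markers summed to 399, 4363 and 7253 CPM in Runx2ko replicates 1 to 3, monocyte and macrophage markers to 343, 3743 and 7457 CPM, and primary granule markers to 514, 1846 and 3407 CPM. Replicate 3 was the highest of the group on each of these 3 lists. It was the lowest on the conventional dendritic cell and MHC class II list (51.8, 141.0 and 9.21 CPM), the B cell list (11.97, 12.9 and 2.44 CPM) and the T and NK cell list (34.9, 17.7 and 12.7 CPM). The plasmacytoid dendritic cell list, of cells known as strong interferon producers, summed to 175, 119.5 and 249 CPM in Runx2ko, against 258, 132.5 and 171 CPM in Runx2wt, leaving out Bst2, itself a member. Most of that sum came from Tcf4 and Cox6a2, while Siglech and Ccr9 were at no more than 1.62 CPM in any transformed library. The part of these cell types in the library pattern was not tested, and in bulk RNA fewer cells of a type and less RNA per cell cannot be told apart.

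**Figure D2:**
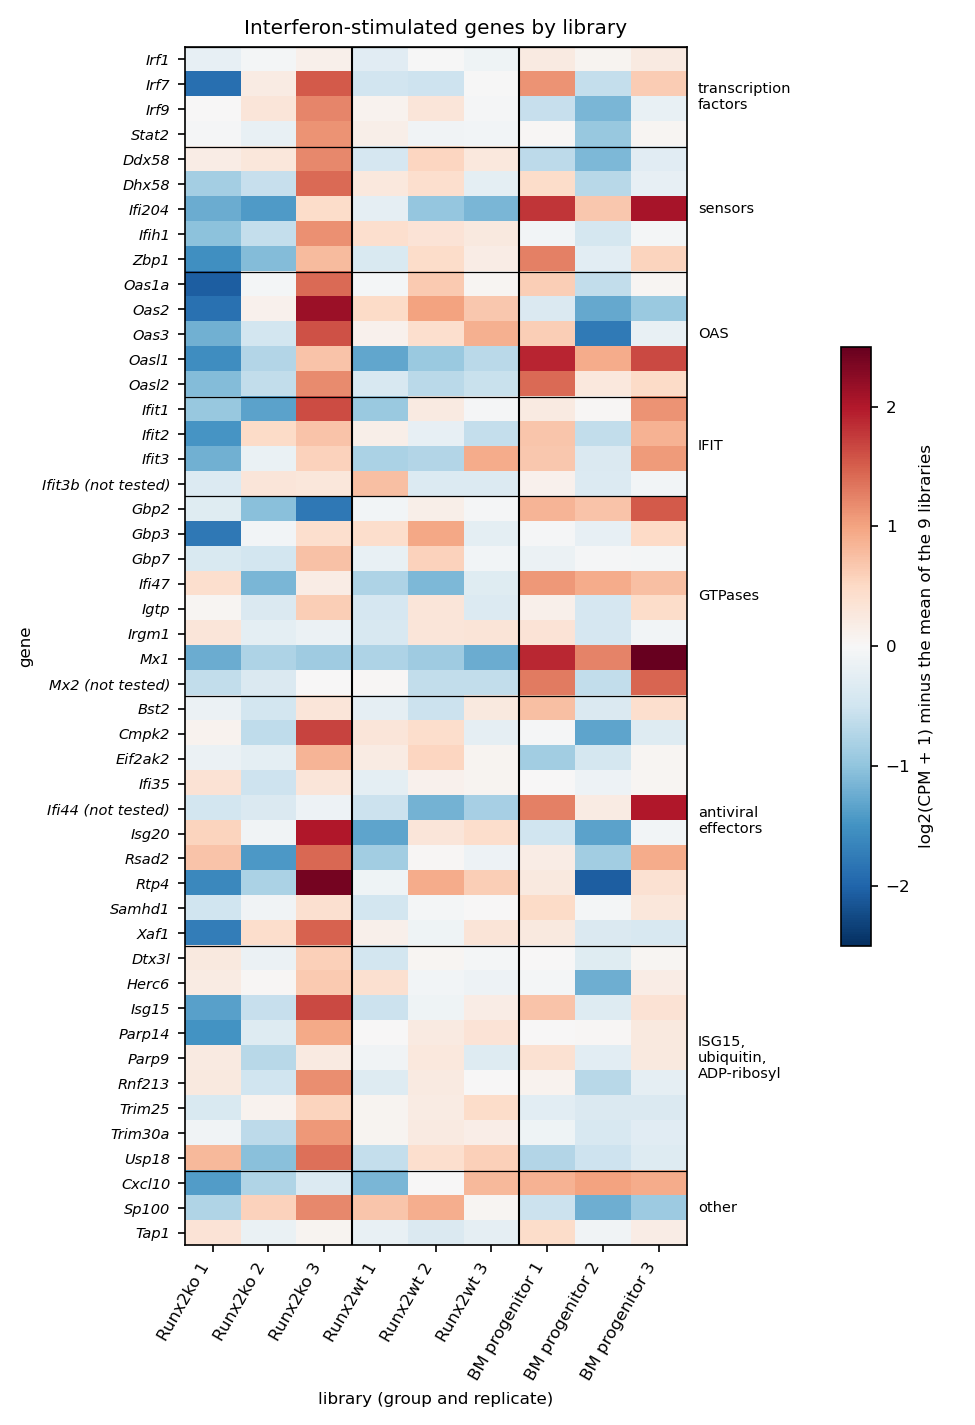
Level of each of the 48 members in each library, as log2(CPM + 1) minus the mean of the 9 libraries, grouped by role. Red is above and blue below that mean; Runx2ko replicate 3 is the reddest column, and Mx1, Oasl1 and Ifi204 are red in BM progenitor and blue or pale in the transformed libraries.

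The comparison of Runx2ko with Runx2wt asks what 4-OHT treatment of the floxed cells changed. edgeR called 0 of 45 members higher (0% of all tested genes) and 0 of 45 lower (0%), which is also the share over all genes, so these counts say nothing particular of the members. Among the members 0 had an unadjusted p under 0.05. The smallest adjusted p among them was 0.634, for Gbp2. The median log2 fold change of Runx2ko over Runx2wt was 0.23 over the members and 0.01 over all 11196 genes. Of the members 32 of 45 values were positive, against 51.39% over all genes. Groups did not overlap for 1 member that was higher, Tap1 (4.95% of all genes), and for 1 that was lower, Gbp2 (4.73%).

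That median rested on 1 library: without Runx2ko replicate 3 it was -0.37, and without Runx2ko replicate 2 it was 0.49. Without Runx2ko replicate 1, which stood apart by its markers, it was 0.41, and the counts of members called were again 0 and 0 (0.0172% of all genes higher and 0.0258% lower). Over all genes edgeR called 0, with 886 at an unadjusted p under 0.05, DESeq2 called 46, and edgeR without Runx2ko replicate 1 called 5. In DESeq2 and in limma-voom 0 members were called in this comparison.

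Runx2wt was compared with BM progenitor to ask what differed in the transformed cells. Mx1, Oasl1, Ifi204 and Ifi47 were lower in Runx2wt, and no member was called higher. Mx1 reached 10 counts only in the 3 BM progenitor libraries, and Oasl1 only there and in Runx2ko replicate 3. Ifi204 reached 10 counts only there, in Runx2ko replicate 3 and in Runx2wt replicate 1. All 3 thus passed the limit on low counts through the group in which they were high. Mx1 and Oasl1 had to differ, and the fall of Ifi204 was favoured by that limit. The calls were 4 of 45 members lower (5.23% of all tested genes) and 0 of 45 higher (8.28%), with 9 members at an unadjusted p under 0.05. The median log2 fold change was 0.10 over the members and 0.01 over all genes, with 23 of 45 values positive (50.66% over all genes). Groups did not overlap for 7 members that were higher (24.8% of all genes) and 9 that were lower (24.5%). The calls hung on single libraries: with any 1 Runx2wt or BM progenitor library left out, 0 to 2 members were lower, and Mx1 was among them except without BM progenitor replicate 3.

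Runx2ko was also compared with BM progenitor, which shares those BM progenitor libraries with the comparison before it. Ddx58 and Irf9 were higher in Runx2ko, and Mx1 and Gbp2 were lower. Mx1 was again a gene that passed the limit on low counts only through BM progenitor. Gbp2 reached 10 counts only in Runx2wt and BM progenitor, so its fall in Runx2ko was favoured by that limit. That is 2 of 45 members higher (10.0% of all tested genes) and 2 of 45 lower (7.14%), with 11 at an unadjusted p under 0.05. The median log2 fold change was 0.16 over the members and 0.07 over all genes, with 25 of 45 values positive (53.83% over all genes). Without Runx2ko replicate 3 the member median was -0.55. Groups did not overlap for 2 members that were higher (19.5% of all genes) and 6 that were lower (18.8%). Neither Ddx58 nor Irf9 was called without Runx2ko replicate 3, without Runx2wt replicate 2 or 3, or without any 1 BM progenitor library, and Irf9 was not called without Runx2wt replicate 1. Mx1 was called lower with each library left out in turn, while Gbp2 was not called without Runx2ko replicate 2 or any 1 BM progenitor library.

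**Figure D3:**
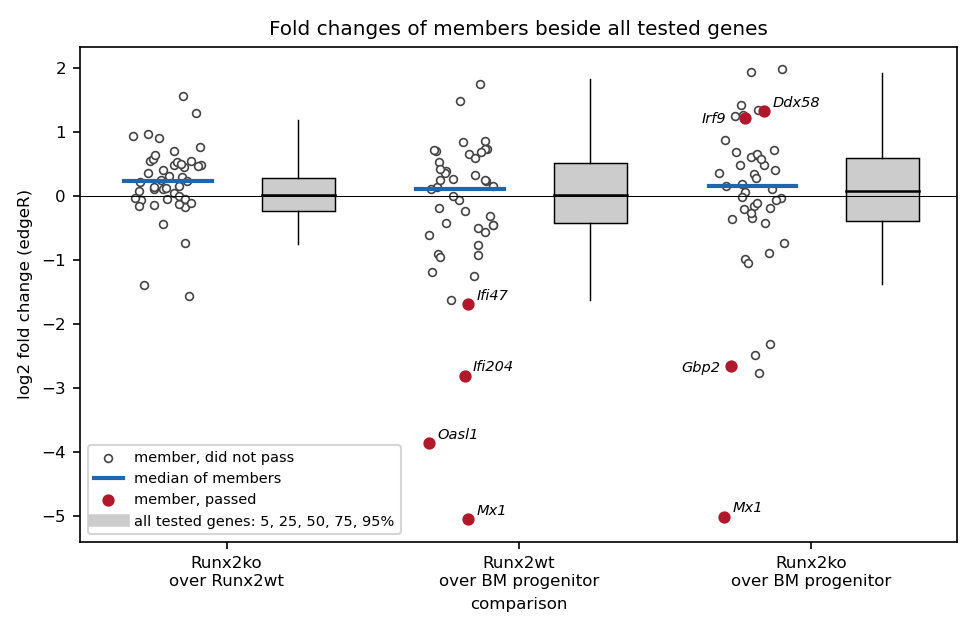
edgeR log2 fold changes of the 45 tested members (points) in the 3 comparisons, beside boxes of all 11196 tested genes. Filled points passed at an adjusted p under 0.05: 0 for Runx2ko over Runx2wt, 4 for Runx2wt over BM progenitor and 4 for Runx2ko over BM progenitor.

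The transcription factors of the set are Irf1, Irf7, Irf9 and Stat2. Of these 4 only Irf9 passed, in 1 comparison, higher in Runx2ko than in BM progenitor (10.0% of all tested genes). Irf9 (ENSMUSG00000002325, GRCm38 chr14:55603571-55610030, plus strand) encodes the DNA-binding subunit of ISGF3. It had 63.7, 77.5 and 148 CPM in Runx2ko, 66.6, 78.2 and 62.0 CPM in Runx2wt, and 41.6, 28.1 and 55.4 CPM in BM progenitor. Every transformed library lay above every BM progenitor library, and Runx2ko replicate 3 was the highest. The log2 fold change of Runx2ko over BM progenitor was 1.21 ± 0.34 (SE), with an adjusted p of 0.0405 in edgeR, and that of Runx2wt over BM progenitor was 0.72 ± 0.34, with an adjusted p of 0.178. Irf7, which switches on interferon genes, had 1.62, 10.3 and 27.1 CPM in Runx2ko, 6.02, 5.82 and 8.62 CPM in Runx2wt, and 20.2, 5.39 and 14.02 CPM in BM progenitor, and all groups overlapped.

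Among the 5 RNA and DNA sensors, Ddx58 rose in Runx2ko and Ifi204 fell in Runx2wt, both against BM progenitor. Ddx58 (ENSMUSG00000040296, GRCm38 chr4:40203773-40239828, minus strand) encodes the RNA sensor RIG-I. It had 30.7, 32.7 and 63.4 CPM in Runx2ko, 19.8, 39.6 and 32.3 CPM in Runx2wt, and 16.8, 11.9 and 21.9 CPM in BM progenitor. Runx2ko lay above BM progenitor in every library, at a log2 fold change of 1.32 ± 0.38 (adjusted p = 0.0406 in edgeR), while Runx2wt and BM progenitor overlapped. Runx2ko replicate 3 was the highest library for Ddx58, as for Irf9. Ifi204 (ENSMUSG00000073489, GRCm38 chr1:173747293-173766943, minus strand) encodes a PYHIN protein that takes part in DNA sensing. It had 0.970, 0.761 and 5.42 CPM in Runx2ko, 3.01, 1.39 and 1.11 CPM in Runx2wt, and 15.1, 6.47 and 18.5 CPM in BM progenitor. Both transformed groups lay below all BM progenitor libraries, with a log2 fold change of -2.81 ± 0.77 for Runx2wt (adjusted p = 0.0424 in edgeR) and -2.495 ± 0.764 for Runx2ko (adjusted p = 0.0514). Ifi204 passed the limit on low counts only with the BM progenitor libraries, in which it was high. The RNA sensors Ifih1 (MDA5) and Dhx58 (LGP2) and the Z-nucleic acid sensor Zbp1 did not pass in any comparison, and their highest transformed library was Runx2ko replicate 3.

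The OAS family makes the messenger 2-5A, which activates RNase L. Of its 5 members 1 passed, lower in Runx2wt than in BM progenitor (5.23% of all tested genes). Oasl1 (ENSMUSG00000041827, GRCm38 chr5:114923240-114937915, plus strand) lacks that enzyme activity and in mice restrains Irf7 translation. It had 0, 0.761 and 3.79 CPM in Runx2ko, 0.188, 0.554 and 0.835 CPM in Runx2wt, and 10.0, 4.59 and 8.28 CPM in BM progenitor. Both transformed groups lay below BM progenitor, with a log2 fold change of -3.87 ± 1.03 for Runx2wt (adjusted p = 0.0385 in edgeR) and -2.31 ± 0.91 for Runx2ko (adjusted p = 0.108). Oas2 had 1.29, 7.99 and 35.8 CPM in Runx2ko, 10.5, 15.8 and 12.2 CPM in Runx2wt, and 5.47, 2.43 and 3.40 CPM in BM progenitor. Its Runx2wt libraries all lay above BM progenitor, while its Runx2ko libraries spanned the whole range. Without Runx2ko replicate 1, Oas2 was called higher than BM progenitor in Runx2ko at a log2 fold change of 2.48 and in Runx2wt at 1.73. Oas1a shares 43.59% of its 3′-end 50-base words with Oas1g, so its counts may be split between the 2 genes.

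The IFIT proteins bind foreign RNA, and none of the 3 tested members passed. Ifit1 had 1.29, 0.761 and 12.7 CPM in Runx2ko, 1.32, 4.16 and 3.34 CPM in Runx2wt, and 4.197, 3.51 and 8.71 CPM in BM progenitor. The groups overlapped in each comparison, and the highest of the 9 libraries was Runx2ko replicate 3. Ifit3 shares 19.09% of its 3′-end words with Ifit3b.

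The interferon-inducible GTPases act on viruses and on pathogen vacuoles, and 7 were tested. Against BM progenitor, 2 were called lower in Runx2wt, Mx1 and Ifi47 (5.23% of all tested genes). In Runx2ko 2 were called lower, Mx1 and Gbp2 (7.14%). Mx1 (ENSMUSG00000000386, GRCm38 chr16:97447035-97462907, minus strand) encodes a dynamin-like GTPase that blocks influenza virus in the nucleus. It had 0, 0.381 and 0.271 CPM in Runx2ko, 0.376, 0.277 and 0 CPM in Runx2wt, and 7.66, 4.59 and 13.8 CPM in BM progenitor. The Runx2ko libraries held 3 counts in all, the Runx2wt libraries 3 and the BM progenitor libraries 124. The summed level was thus 2.79% of BM progenitor in Runx2ko (95% exact interval 0.568% to 8.36%) and 2.69% in Runx2wt (0.546% to 8.03%), intervals that cover counting error only. In edgeR the adjusted p was 0.00750 for Runx2ko and 0.00854 for Runx2wt, with log2 fold changes of -5.01 ± 0.84 and -5.05 ± 0.84 that depend on the prior count.

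Gbp2 (ENSMUSG00000028270, GRCm38 chr3:142620602-142638008, plus strand) encodes a guanylate-binding protein. It had 2.59, 1.14 and 0.271 CPM in Runx2ko, 3.20, 3.88 and 3.34 CPM in Runx2wt, and 6.93, 6.20 and 11.7 CPM in BM progenitor. The 3 groups did not overlap, and Runx2ko was the lowest. The log2 fold change was -2.65 ± 0.64 for Runx2ko over BM progenitor (adjusted p = 0.0232 in edgeR), -1.25 ± 0.58 for Runx2wt over BM progenitor (adjusted p = 0.171) and -1.40 ± 0.64 for Runx2ko over Runx2wt (adjusted p = 0.634). The Runx2ko libraries held 8, 6 and 1 raw counts of Gbp2, which limits the precision of that last value.

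Ifi47 (ENSMUSG00000078920, GRCm38 chr11:49076587-49096974, plus strand) encodes an immunity-related GTPase. It had 29.4, 9.33 and 24.7 CPM in Runx2ko, 12.2, 9.42 and 17.2 CPM in Runx2wt, and 46.7, 41.8 and 36.95 CPM in BM progenitor. Both transformed groups lay below BM progenitor, with a log2 fold change of -1.69 ± 0.40 for Runx2wt (adjusted p = 0.0272 in edgeR) and -0.996 ± 0.391 for Runx2ko (adjusted p = 0.108). Its 3′ end overlaps Olfr56 in the annotation, and it is not stated whether counting used strand. The related Igtp, Irgm1, Gbp3 and Gbp7 did not pass, with log2 fold changes between -0.73 and 0.38 over the 3 comparisons.

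**Figure D4:**
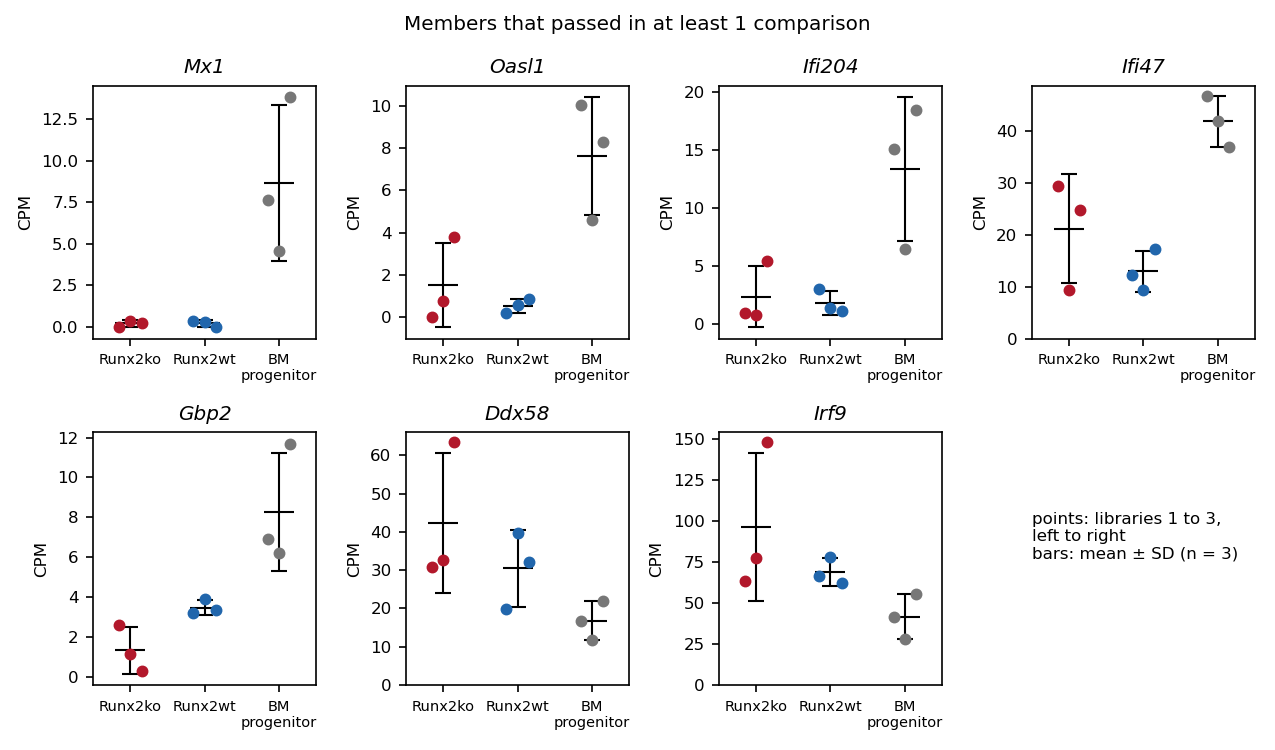
CPM of the 7 members that passed in at least 1 comparison, by library, with the mean and SD of each group (n = 3). Mx1, Oasl1, Ifi204, Ifi47 and Gbp2 were highest in BM progenitor, while Ddx58 and Irf9 were highest in Runx2ko replicate 3.

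The other antiviral effectors, of which 9 were tested, gave no call. They include Rsad2 (viperin), whose product stops viral RNA synthesis, the protein kinase gene Eif2ak2 (PKR), the exonuclease gene Isg20 and Bst2 (tetherin), which holds budding virus at the cell surface. Samhd1, which degrades deoxynucleotides, had 86.0, 115.1 and 162 CPM in Runx2ko, 88.4, 118.1 and 122.7 CPM in Runx2wt, and 172, 119.0 and 149.5 CPM in BM progenitor, with overlapping groups. Rtp4 differed widely between replicates, with 2.91, 5.90 and 62.3 CPM in Runx2ko, 10.2, 21.9 and 17.2 CPM in Runx2wt, and 13.1, 1.89 and 14.7 CPM in BM progenitor. Its log2 fold change of Runx2ko over Runx2wt was 0.53 ± 1.01 (adjusted p = 0.914 in edgeR), since only replicate 3 lay above Runx2wt. Rtp4 was chosen for this spread after its values were seen. Over this role, 8 of 9 values of Runx2ko over Runx2wt were positive (51.39% over all genes), with a median log2 fold change of 0.53. In each tested member of the role but Ifi35, replicate 3 was the highest Runx2ko library.

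Isg15, a ubiquitin-like protein attached to other proteins, and the enzymes around it numbered 9 tested members, and none passed. Isg15 had 8.41, 15.2 and 75.1 CPM in Runx2ko, 15.8, 21.6 and 26.4 CPM in Runx2wt, and 38.5, 18.3 and 30.2 CPM in BM progenitor. Its lowest and its highest library were thus both Runx2ko, and its log2 fold change of Runx2ko over Runx2wt was 0.63 ± 0.68 (adjusted p = 0.845 in edgeR). Trim25, the ubiquitin ligase known for activating RIG-I, had 115.2, 158 and 221 CPM in Runx2ko, 157, 172 and 205 CPM in Runx2wt, and 124, 115.7 and 115.5 CPM in BM progenitor. Runx2wt lay above BM progenitor in every library for Trim25, with a log2 fold change of 0.59 ± 0.23 (adjusted p = 0.111). Without Runx2ko replicate 1 Trim25 was called higher than BM progenitor in Runx2ko at a log2 fold change of 0.67 and in Runx2wt at 0.58. Herc6, the mouse ISG15 ligase, shares 29.99% of its 3′-end words with Gm45193, and Trim30a shares 24.15% with Trim30d. The 3′ ends of Usp18, Rnf213 and Parp9 overlap other annotated genes, and Parp9 overlaps its partner Dtx3l. In other roles, the 3′ end of Irf7 overlaps Phrf1, that of Cxcl10 Art3, that of Igtp Irgm2 and that of Dhx58 Dhx58os.

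Several members are neighbours in the genome, and their levels are set side by side here. Rsad2 and the nucleotide kinase gene Cmpk2, which helps supply its substrate, lie 12752 bases apart on chromosome 12. Rsad2 had 31.1, 6.28 and 52.0 CPM in Runx2ko, 9.78, 18.8 and 17.0 CPM in Runx2wt, and 21.4, 9.71 and 36.1 CPM in BM progenitor. Cmpk2 had 11, 6.28 and 35.5 CPM in Runx2ko, 13.0, 14.4 and 8.62 CPM in Runx2wt, and 10.04, 3.51 and 8.07 CPM in BM progenitor. Both were lowest of the group in Runx2ko replicate 2 and in BM progenitor replicate 2, and highest of the 9 libraries in Runx2ko replicate 3. Parp9 and Dtx3l, whose products form an ADP-ribosyl and ubiquitin ligase complex, overlap on opposite strands of chromosome 16. Parp9 had 20.05, 10.1 and 20.06 CPM in Runx2ko, 16.0, 20.5 and 13.4 CPM in Runx2wt, and 22.4, 14.03 and 20.4 CPM in BM progenitor. Dtx3l had 80.9, 61.5 and 104.1 CPM in Runx2ko, 49.5, 70.9 and 66.2 CPM in Runx2wt, and 69.3, 55.6 and 70.5 CPM in BM progenitor. In both genes replicate 2 was the lowest library of Runx2ko and of BM progenitor.

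Of the last 3 members, Sp100, Tap1 and Cxcl10, none passed. Sp100, a nuclear body protein, had 82.8, 209.9 and 327 CPM in Runx2ko, 229, 267 and 145 CPM in Runx2wt, and 96.2, 60.2 and 74.3 CPM in BM progenitor. Runx2wt lay above BM progenitor in every library, with a log2 fold change of 1.47 ± 0.44 (adjusted p = 0.0540 in edgeR), and Runx2ko did so in replicates 2 and 3, with 1.42 ± 0.44 (adjusted p = 0.0528). Without Runx2ko replicate 1, which stood apart, Sp100 was called higher in Runx2ko at a log2 fold change of 1.79 and in Runx2wt at 1.47. Tap1, a peptide transporter for MHC class I, had 86.7, 60.7 and 72.4 CPM in Runx2ko, against 59.8, 53.5 and 58.7 CPM in Runx2wt, which did not overlap (log2 fold change 0.35 ± 0.20, adjusted p = 0.686). The chemokine gene Cxcl10 had 0, 0.571 and 1.08 CPM in Runx2ko, 0.188, 1.66 and 3.62 CPM in Runx2wt, and 3.83, 4.32 and 4.03 CPM in BM progenitor, so that both transformed groups lay below BM progenitor. Its adjusted p was 0.0809 for Runx2ko and 0.373 for Runx2wt against BM progenitor.

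Leaving out Runx2ko replicate 1 gave more calls in both comparisons with BM progenitor. In that fit 47 members were tested. For Runx2ko over BM progenitor, 5 members were called higher (15.9% of all genes) and 4 lower (12.6%). For Runx2wt over BM progenitor, 3 were called higher (15.9%) and 5 lower (12.1%), among them Ifi44, which the fit on 9 libraries did not test. Mx1, Ifi204 and Ifi47 were called lower in both, of which Mx1 and Ifi204 reached 10 counts in 3 libraries only with BM progenitor. Ifi44 and Oasl1 were called lower in Runx2wt alone. Ifi44 reached 10 counts only in BM progenitor, and Oasl1 only there and in Runx2ko replicate 3. Both thus entered the test through BM progenitor, in which they were high, and had to fall.

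Markers of other cell types are set here beside the members lower in transformed cells, and not all of them were lower. Monocyte and macrophage markers summed to 343 to 7457 CPM in Runx2ko, 4177 to 11450 CPM in Runx2wt and 3028 to 4171 CPM in BM progenitor. Lyz2 alone made up most of that sum in every library. Of 9 tested, 3 fell and 1 rose in Runx2ko, and 2 fell and 2 rose in Runx2wt. Of the 8 plasmacytoid dendritic cell markers 6 were tested, Bst2 among them, and 3 (Siglech, Ccr9 and Ly6d) fell in both Runx2ko and Runx2wt. The other 3 did not pass: Tcf4 had log2 fold changes over BM progenitor of 0.25 in Runx2ko and 0.39 in Runx2wt, and Cox6a2 of 0.75 and 0.57. Siglech had 1.62, 0.190 and 0.542 CPM in Runx2ko, 0.188, 0.277 and 0.278 CPM in Runx2wt, and 19.9, 10.5 and 19.5 CPM in BM progenitor. The list without Bst2, carried by Tcf4 and Cox6a2 in transformed cells, summed to 119.5 to 249 CPM in Runx2ko, 132.5 to 258 CPM in Runx2wt and 209 to 249 CPM in BM progenitor, with Klk1 at 0 in every Runx2wt library. Conventional dendritic cell and MHC class II markers summed to 9.21 to 141.0 CPM in Runx2ko, 27.5 to 68.2 CPM in Runx2wt and 289 to 412 CPM in BM progenitor. Of 6 tested, 3 fell in Runx2ko and 5 in Runx2wt. Clec9a, Cd209a and Ciita were at 0 in every Runx2wt library, and Cd209a in every Runx2ko library. Eosinophil markers summed to 8.37 to 17.8 CPM in Runx2ko, 2.49 to 4.14 CPM in Runx2wt and 1353 to 1804 CPM in BM progenitor. Of these 7 markers, 6 fell in each transformed group, and Epx, Ear1, Ear2 and Ccr3 were at 0 in every Runx2wt library. Of all tested genes, 7.14% were called lower in Runx2ko and 5.23% in Runx2wt, and 10.0% and 8.28% were called higher. Siglech, Ccr9, Ly86, Flt3, Batf3, Epx, Ear1, Ear2, Ear6 and Ccr3 were at no more than 1.62 CPM in any transformed library. They thus entered the test through BM progenitor, in which they were high, and had to fall. The part of these cells in the lower members was not tested.

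Genes around the members were read from lists of the same pathway. Of the 12 listed interferon genes themselves, 0 matched a gene of the count table by symbol, so they were not analysed here. Of 16 tested receptor, JAK-STAT and feedback genes, 1 passed, higher in Runx2ko than in BM progenitor (10.0% of all tested genes). This was Ifnar2, a subunit of the type I interferon receptor, whose call held in 6 of 17 alternative fits. It had 94.5, 171 and 204 CPM in Runx2ko, 130.4, 148 and 166 CPM in Runx2wt, and 92.5, 65.6 and 82.8 CPM in BM progenitor, with a log2 fold change of Runx2ko over BM progenitor of 0.96 ± 0.27 (adjusted p = 0.0395 in edgeR). The other subunit gene, Ifnar1, had 16.2, 17.5 and 28.5 CPM in Runx2ko, 20.9, 28.5 and 28.4 CPM in Runx2wt, and 27.0, 23.5 and 27.2 CPM in BM progenitor, and its groups overlapped. Socs1, the feedback inhibitor of JAK kinases, had 105.8, 14.7 and 16.5 CPM in Runx2ko, 13.2, 26.1 and 29.8 CPM in Runx2wt, and 14.6, 22.1 and 18.7 CPM in BM progenitor. Only Runx2ko replicate 1 stood out for Socs1.

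Of 18 tested genes that act in nucleic acid sensing ahead of interferon, 1 passed. It was lower than BM progenitor in Runx2ko (7.14% of all tested genes) and in Runx2wt (5.23%). Irf5, which turns on inflammatory and interferon genes after Toll-like receptor signals, had 25.9, 24.7 and 27.6 CPM in Runx2ko, 8.28, 18.0 and 18.6 CPM in Runx2wt, and 119, 156 and 149.1 CPM in BM progenitor. It fell in Runx2ko by 2.44 ± 0.29 on the log2 scale (adjusted p = 0.00223 in edgeR) and in Runx2wt by 3.25 ± 0.30 (adjusted p = 0.000793). Irf8, a factor of monocyte and dendritic cell development, had 9.06, 48.7 and 93.5 CPM in Runx2ko, 83.5, 76.8 and 92.4 CPM in Runx2wt, and 230.3, 168 and 169 CPM in BM progenitor. Both transformed groups lay below BM progenitor for Irf8, without passing. Without Runx2ko replicate 1 it was called lower in Runx2ko, at a log2 fold change of -1.42, and in Runx2wt, at -1.17. Irf3, activated directly by the sensors, had overlapping groups in each comparison.

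A further 65 interferon-stimulated genes outside the list were tested. For Runx2ko over Runx2wt 0 were called, for Runx2wt over BM progenitor 3 were higher (8.28% of all genes) and 6 lower (5.23%), and for Runx2ko over BM progenitor 6 were higher (10.0%) and 5 lower (7.14%), at median log2 fold changes of 0.16, 0.02 and -0.00492. Gbp8, a guanylate-binding protein gene, had 1.94, 20.6 and 18.7 CPM in Runx2ko, 13.9, 29.9 and 44.5 CPM in Runx2wt, and 1.46, 0.809 and 0.425 CPM in BM progenitor. Gbp8 rose in Runx2ko by 3.88 ± 0.88 (adjusted p = 0.0197 in edgeR) and in Runx2wt by 4.95 ± 0.89 (adjusted p = 0.0111), opposite in direction to Gbp2. With no more than 1.46 CPM in BM progenitor, Gbp8 passed the limit on low counts only through the transformed groups. The rise of Gbp8 was thus favoured by that limit. Ifi203, a PYHIN gene like Ifi204, had 2.59, 5.52 and 5.69 CPM in Runx2ko, 0, 1.66 and 4.45 CPM in Runx2wt, and 39.96, 27.5 and 44.2 CPM in BM progenitor. It fell by 2.99 ± 0.76 in Runx2ko (adjusted p = 0.0290) and by 4.26 ± 0.84 in Runx2wt (adjusted p = 0.0147). Ifi30, a lysosomal thiol reductase for antigen processing, had 5.499, 18.8 and 8.13 CPM in Runx2ko, 24.7, 13.6 and 19.5 CPM in Runx2wt, and 162, 148 and 201 CPM in BM progenitor. The lower values in transformed cells passed for both groups, with adjusted p of 0.00173 for Runx2ko and 0.00344 for Runx2wt.

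Members with an ISRE core in their window were set beside those without one. Of the tested members with a window, 18 held the core and 18 did not. The median log2 fold change of Runx2ko over Runx2wt was 0.02 with the core and 0.48 without. That of Runx2wt over BM progenitor was 0.14 with and -0.04 without, and that of Runx2ko over BM progenitor 0.17 with and 0.22 without. In Runx2ko replicate 3 the median deviation from the group mean was 0.83 with the core and 0.76 without, and in BM progenitor replicate 2 it was -0.43 with and -0.37 without. Both sets were thus high in that Runx2ko library and low in that BM progenitor library.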

How the data were processed

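Gene expression was measured in 9 libraries of mouse bone marrow cells by QuantSeq 3′ sequencing. The authors deposited a raw count table by Ensembl gene, and normalized values that served here only as an alternative. FastQC, STAR, DESeq2 and the build GRCm38 are named per the submitters' processing notes, with no counting settings stated.

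Counts were tested with the quasi-likelihood method of edgeR 4.0.16 in R 4.3.3. TMM scaling was used, and filterByExpr kept 11196 genes. The 9 libraries, in 3 groups, were fitted together. A gene passed when its Benjamini-Hochberg adjusted p, taken over all tested genes, was under 0.05. The standard error (SE) of a log2 fold change is the fold change divided by the root of its F value. The code was tested on simulated data. Members, pathway lists and markers were chosen with earlier results of these data known. Values per library are given for members that passed, for the most abundant member of a role with no call, and for further members chosen after their values were seen (Irf7, Oas2, Isg15, Rtp4, Rsad2, Cmpk2, Parp9, Dtx3l, Tap1 and Cxcl10). Gene symbols and positions are those of GENCODE on GRCm38, and promoter windows are RefSeq's. Shared 3′-end sequence was counted as 50-base words of the last 400 bases of each transcript. Protein identity was not computed.

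Alternatives were RLE factors, DESeq2 1.42.0, limma-voom (limma 3.58.1), other filters on low counts, only the 6 compared libraries, a replicate block, the deposited normalized values as log2 with a pseudocount of 1, and leaving out each library in turn.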

Additional observations from a re-analysis of the deposited data

How the results depend on the processing

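For Runx2ko over Runx2wt, 0 members were called in either direction under every alternative run, while over all genes DESeq2 called 46 and leaving out 1 library gave 0 to 5. For Runx2wt over BM progenitor, the members called higher numbered 1 with no filter on low counts, 1 in DESeq2, 5 with only the 6 compared libraries and 0 to 3 with 1 library left out. Members called lower numbered 0 to 6 with 1 library left out. All genes called numbered 2390 in DESeq2, 3679 with only the 6 compared libraries and 209 to 3256 with 1 library left out. For Runx2ko over BM progenitor, members called higher numbered 1 in limma-voom, 0 with only the 6 compared libraries and 0 to 5 with 1 library left out. Members called lower numbered 4 in DESeq2, 5 in limma-voom, 1 with only the 6 compared libraries and 1 to 5 with 1 library left out. All genes called numbered 1262 with only the 6 compared libraries and 405 to 3311 with 1 library left out. The cause of these shifts was not tested.

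The replicate numbers gave no sign of pairing over all tested genes: same-numbered libraries correlated at -0.062 to 0.0696 in their deviations from the group means. With so few libraries this check cannot exclude a weak shared origin of same-numbered libraries. With the replicate block, 2 members were lower and 922 genes were called for Runx2wt over BM progenitor. For Runx2ko over BM progenitor the replicate block gave 0 members higher, 1 lower and 1120 genes.

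The median log2 fold change of the members depended on single libraries. With 1 library left out it ran from -0.37 to 0.49 for Runx2ko over Runx2wt, from -0.12 to 0.09 for Runx2wt over BM progenitor and from -0.55 to 0.38 for Runx2ko over BM progenitor. For Runx2ko over Runx2wt it was 0.04 in limma-voom, 0.08 with the replicate block and -0.02 on the deposited normalized values. For Runx2ko over BM progenitor it was -0.09 in limma-voom. No called fold change of a named gene turned in sign under any alternative. The members with few counts, such as Mx1 and Gbp2, are limited by counting error.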
